A study of Arabidopsis thaliana with 28 samples.

Results

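The WRKY transcription factors are a large family of plant regulators named after a short conserved peptide in their DNA-binding domain. The domain contacts the W-box, a short promoter element with the core TTGAC, and many WRKY genes carry W-boxes themselves, so that members regulate each other. In *Arabidopsis thaliana* leaves and seedlings they are best known from pattern-triggered immunity, in which the receptor FLS2 binds the bacterial flagellin peptide flg22 and starts kinase cascades, some of whose substrates are WRKY proteins. Members are sorted into subgroups I, IIa to IIe and III by the number and the zinc-finger type of their domains. The members described here were the 60 genes of a name list, chosen by gene name out of 27371 genes per table, with earlier results of these data known. All 60 were found. The reference annotation names 72 WRKY loci, and the other 12, of which *RRS1* had the highest value at 12.7 FPKM and 8 stayed below 1 FPKM in every group, are not described. Of the 60 members 5 stayed below 1 FPKM in every group, so the list leaves out mostly low genes and shares over the 60 hold for the list.

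The study asked how INDETERMINATE-DOMAIN 4 (IDD4), a zinc-finger transcription factor and substrate of the immune kinase MPK6, shapes immune and growth gene expression. RNA of whole 14 day-old Col-0 seedlings, grown in long days on sugar-free medium, was sequenced in 2 experiments. In the flg22 experiment, wild type (WT, labelled ColO) and the T-DNA line Salk_148352C (*idd4*) were left untreated or received 1 µM flg22 for 1 h, with 3 samples per group in the labels. In the expressor experiment, WT was compared with 3 lines in the same background that express IDD4 from the broadly active *UBI10* promoter: *IDD4ox* (a GFP fusion, pUBI10::IDD4:GFP in the labels and with GFP in front of IDD4 in the text of the study), *IDD4-AA* and *IDD4-DD* (RFP fusions with a phosphorylated serine and threonine exchanged for alanine in *IDD4-AA* and for aspartic acid in *IDD4-DD*), with 2 samples per group in the labels. For these groups the labels give no treatment beyond a protocol text that all samples share, and each was read as 1 line. The 8 samples of chromatin immunoprecipitation were not analysed here.

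The deposited tables hold 1 FPKM value per gene and group (fragments per kilobase of transcript, relative to all mapped fragments of a library), which is the authors' value over the replicates. No spread between replicates could therefore be computed, no difference was tested, and depth is unknown. Differences are given as folds of FPKM or as the log2 difference, which is the difference of log2(FPKM + 1) and understates low genes. A gene was counted as higher or lower from a 2-fold difference on that scale, and it was counted as measured in a comparison from 1 FPKM in either group. The seedlings were bulk material, in which more cells of a type and more RNA per cell cannot be told apart.

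The level of the target gene did not show a loss in the groups labelled *idd4*. *IDD4* stood at 14.5 FPKM in untreated WT and 23.0 FPKM in untreated *idd4*-labelled seedlings, and at 5.69 and 22.4 FPKM after flg22. The study describes the line as a knockout with the insertion in the first exon, from genotyping, RT-PCR of the transcript and a complementation line. A value over the whole gene does not show which part of the transcript was read, so it cannot decide whether the transcript was intact. Every direction drawn from that group below is a direction for the group with this label. In the expressor experiment *IDD4* was at 9.23 FPKM in WT, 197 FPKM in *IDD4ox*, 71.6 FPKM in *IDD4-AA* and 198 FPKM in *IDD4-DD*. The shoot marker *LHCB3*, a light-harvesting protein, ranged from 2898 to 4148 FPKM over the 8 groups and the root endodermis marker *CASP1* from 16.1 to 66.2 FPKM, so both organs of the seedling were present.

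Untreated seedlings carried most members at low levels. In untreated WT the 60 members summed to 365 FPKM, with a median of 4.38 FPKM and a highest value of 26.4 FPKM, and *idd4*-labelled seedlings were close, with a sum of 382 FPKM. After 1 h of flg22 the sums were 2707 FPKM in WT and 3671 FPKM in *idd4*-labelled seedlings. The same 5 genes, *WRKY22*, *WRKY15*, *WRKY11*, *WRKY30* and *WRKY33*, led both treated groups and made up 61.5% and 64.4% of those sums. In the expressor experiment the sums lay between 569 FPKM in *IDD4ox* and 641 FPKM in WT. At the low end, *WRKY12*, *WRKY13*, *WRKY55*, *WRKY62* and *WRKY71* stayed below 1 FPKM in all 8 groups. *WRKY12*, known for the control of pith cell walls in stems, was listed at 0 in *IDD4-DD* and at 0.0297 to 0.167 FPKM elsewhere. *WRKY62*, related to *WRKY38*, was listed at 0 in untreated *idd4*-labelled seedlings and in both treated groups, and at 0.130 to 0.380 FPKM in the others.

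**Figure D1:**
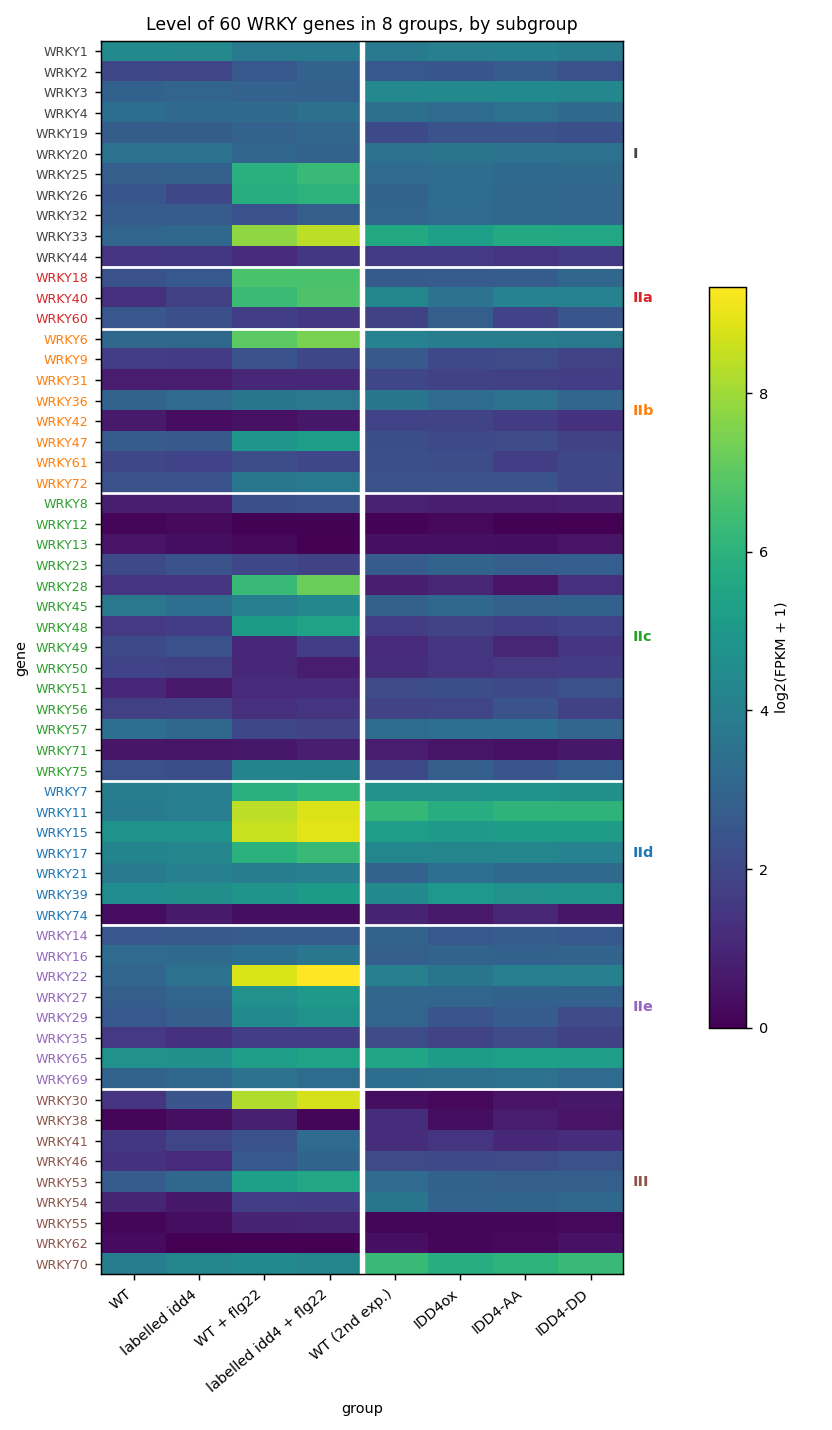
Level of the 60 WRKY genes, 1 row per gene, in the 8 groups, 1 column per group, with colour giving log2(FPKM + 1) of the authors' 1 value per group and white lines separating the subgroups and the 2 experiments. The flg22 columns hold the brightest cells, led by *WRKY22* at 442 and 644 FPKM, while *WRKY12* and *WRKY62* are dark throughout.

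The response to flg22 was the pattern that dominated the family. In WT 22 of the 60 members (36.7%) were at least 2-fold higher after flg22 and 2 (3.33%) were lower. Over all 18540 genes measured in that comparison, 10.9% were higher and 8.48% lower, and as a share of all 27371 genes 7.41% were higher. The median log2 difference was 0.52 over the 60 members, 0.60 over the 52 measured and -0.16 over all measured genes. In *idd4*-labelled seedlings 24 members were higher and 2 lower, against 13.1% and 8.33% of the measured genes, and the median over the 60 members was 0.46. All 22 members that were higher in WT were also higher in *idd4*-labelled seedlings. Over all measured genes 2028 were higher in WT, and 1885 of them (9.94% of the genes measured in the experiment) were higher in both. Such an overlap was therefore not particular to the family. The FPKM of these 22 was a median of 11-fold higher in WT, from 2.96-fold to 172-fold, and 15.3-fold higher in *idd4*-labelled seedlings. These 2 comparisons share no samples. At 1.5-fold 26 of the measured members were higher and 4 lower in WT, against 17.1% and 22.2% of measured genes, and 27 and 4 in *idd4*-labelled seedlings, against 20.4% and 19.4%. The root markers *EXPA7*, *COBL9*, *CASP1* and *SHR* had 4.17, 2.89, 18.9 and 13.7 FPKM in untreated WT and 8.36, 1.98, 27.8 and 11.2 FPKM after flg22, and the part of root tissue was not tested.

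**Figure D2:**
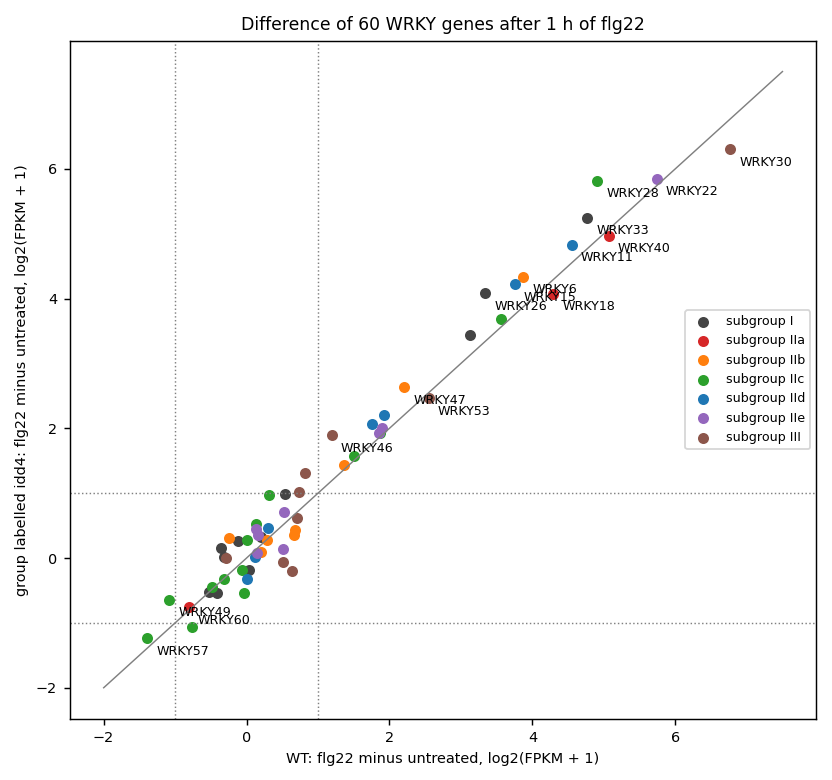
Log2 difference of log2(FPKM + 1) after 1 h of flg22 in WT (x axis) and in *idd4*-labelled seedlings (y axis) for the 60 WRKY genes, 1 point per gene coloured by subgroup, with dotted lines at 2-fold and a grey line where both are equal. The 22 genes past 2-fold in both reach from *WRKY46* (1.19 and 1.89) to *WRKY30* (6.77 and 6.30), and *WRKY57* lies lowest.

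*WRKY30* (AT5G24110), an early stress-responsive member of subgroup III, had the largest log2 difference in both genotypes. Pairs of values of one treatment are given with WT first and *idd4*-labelled seedlings second, and pairs of one genotype with the untreated value first. Its level was 1.71 FPKM in untreated WT, 4.45 FPKM in untreated *idd4*-labelled seedlings, and 296 and 429 FPKM after flg22, which is 172-fold and 96.3-fold higher. *WRKY22* (AT4G01250) and *WRKY29* (AT4G23550), both of subgroup IIe, are classically placed downstream of the flagellin kinase cascade. *WRKY22* stood at 7.31 and 10.3 FPKM untreated and at 442 and 644 FPKM after flg22, the highest level of any member. *WRKY29* stood at 4.99 and 6.15 FPKM untreated and at 20.8 and 26 FPKM after flg22. In WT the difference was 60.4-fold for *WRKY22* and 4.17-fold for *WRKY29*. Their relative *WRKY27*, which affects the course of bacterial wilt, was at 6.10 FPKM in untreated WT and 25.4 FPKM after flg22, and the remaining 5 members of the subgroup (*WRKY14*, *WRKY16*, *WRKY35*, *WRKY65* and *WRKY69*) had log2 differences of 0.13 to 0.53 in WT.

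*WRKY33* (AT2G38470) is a substrate of MPK3 and MPK6, drives synthesis of the phytoalexin camalexin and is required against necrotrophic fungi. It stood at 7.16 and 7.96 FPKM untreated and at 221 and 337 FPKM after flg22. *WRKY25* and *WRKY26*, which act with *WRKY33* in heat tolerance, were the other members of subgroup I that were higher. In WT *WRKY25* was at 6.09 FPKM untreated and 60.5 FPKM after flg22, and *WRKY26* at 4.61 and 55.9 FPKM. The remaining 8 members of subgroup I lay within 1 log2 unit in both genotypes. Of these, *WRKY1* was the highest when untreated and lower after flg22, at 20.4 and 19.8 FPKM untreated and 13.8 and 13.4 FPKM treated. *WRKY20* was likewise lower, at 10.3 and 10.2 FPKM untreated and 7.52 and 6.73 FPKM treated. *WRKY2*, which acts in embryo polarity, was the nearest member below 2-fold in *idd4*-labelled seedlings, with 2.85 FPKM untreated and 6.59 FPKM treated (log2 difference 0.98), and in WT it had 3.07 and 4.92 FPKM. *WRKY3* and *WRKY4*, which contribute to resistance to necrotrophs, were nearly level. In WT *WRKY3* had 6.52 FPKM untreated and 6.68 FPKM treated and *WRKY4* had 9.25 and 8.41 FPKM. *WRKY32* had 5.51 and 4.07 FPKM in WT but 5.33 and 6.03 FPKM in *idd4*-labelled seedlings.

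Subgroup IIa split. *WRKY18* (AT4G31800), *WRKY40* (AT1G80840) and *WRKY60* (AT2G25000) form complexes with one another and restrain several defence outputs. *WRKY40* stood at 1.43 and 2.39 FPKM untreated and at 80.8 and 105 FPKM after flg22, a 56.5-fold and 44-fold difference. *WRKY18* stood at 4.14 and 4.92 FPKM untreated and at 99.5 and 98.7 FPKM after flg22. *WRKY60* went the other way without reaching 2-fold on the log2(FPKM + 1) scale, from 4.85 and 3.80 FPKM untreated to 2.34 and 1.83 FPKM after flg22. It was the nearest member short of 2-fold lower in both genotypes (log2 differences -0.81 and -0.76), although its FPKM alone was 0.482-fold in each.

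Subgroup IId, whose members bind calmodulin, held 4 of the higher genes among its 7. *WRKY11* (AT4G31550) and *WRKY17* limit basal resistance to *Pseudomonas syringae*. *WRKY11* stood at 13.4 and 15.1 FPKM untreated and at 337 and 458 FPKM after flg22, while *WRKY17*, at 17.6 and 18.1 FPKM untreated, reached 61.5 and 78.9 FPKM. *WRKY15* (AT2G23320) was the highest member in untreated WT (26.4 FPKM) and stood at 369 FPKM after flg22. *WRKY7* was at 14.5 and 58.2 FPKM in WT. The other 3 differed by less: *WRKY39* had 22.3 and 27.6 FPKM in WT, *WRKY21* 13.1 and 14.4 FPKM, and *WRKY74* stayed below 1 FPKM in this experiment.

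Subgroup IIc, the largest with 14 members, held both directions. *WRKY28* (AT4G18170), described as an activator of the salicylic acid gene *ICS1*, stood at 1.68 and 1.67 FPKM untreated and at 79.5 and 149 FPKM after flg22. *WRKY48*, a restraint on basal resistance, stood at 1.90 FPKM in untreated WT and 33.1 FPKM after flg22, and *WRKY75*, a regulator of phosphate starvation responses, at 3.98 and 17.2 FPKM. *WRKY8* was higher at a low level, from 0.710 to 3.88 FPKM. *WRKY57* (AT1G69310), known from drought tolerance and leaf senescence, was the one member at least 2-fold lower in both genotypes, with 9.56 and 7.87 FPKM before and 3.04 and 2.76 FPKM after treatment. *WRKY49* passed the threshold in WT alone, with 3.29 FPKM untreated and 1.03 FPKM treated (log2 difference -1.08), against 4.16 and 2.30 FPKM in *idd4*-labelled seedlings (-0.65). *WRKY50*, which with *WRKY51* curbs jasmonate responses, passed it in *idd4*-labelled seedlings alone, with 2.44 and 0.643 FPKM (-1.07) against 2.64 and 1.13 FPKM in WT (-0.77). For both genes the difference between genotypes was not tested here. The other 7 members (*WRKY12*, *WRKY13*, *WRKY23*, *WRKY45*, *WRKY51*, *WRKY56* and *WRKY71*) lay between -0.54 and 0.97 log2 units in both genotypes, and *WRKY45*, an activator of phosphate uptake, had the highest levels of these with 12.1 FPKM in untreated WT and 15.3 FPKM after flg22.

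In subgroup IIb, *WRKY6* (AT1G62300), which acts in senescence and phosphate transport, stood at 7.64 and 7.76 FPKM untreated and at 125 and 175 FPKM after flg22. *WRKY47* was at 5.52 FPKM in untreated WT and 29.3 FPKM after flg22, and *WRKY72*, which contributes to basal immunity, at 3.95 and 11.7 FPKM. *WRKY9*, *WRKY31*, *WRKY36*, *WRKY42* and *WRKY61* lay within 0.68 log2 units of their untreated level in both genotypes.

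Subgroup III contains the salicylic acid-linked members. *WRKY53* (AT4G23810), a senescence regulator, stood at 5.54 and 7.88 FPKM untreated and at 37.2 and 47.7 FPKM after flg22. *WRKY46* (AT2G46400), which acts with *WRKY53* and *WRKY70* (AT3G56400) in resistance to *P. syringae*, was the member nearest above 2-fold in WT, with 1.58 FPKM untreated and 4.89 FPKM treated (log2 difference 1.19), and 1.19 and 7.11 FPKM in *idd4*-labelled seedlings. *WRKY70*, a node between salicylic acid and jasmonate signalling, was among the highest members when untreated and stayed within 2-fold, at 14.5 and 18.7 FPKM untreated and 21 and 17.9 FPKM treated. *WRKY41* (AT4G11070), the closest relative of *WRKY53*, was nearest below the threshold in WT, with 1.87 and 4.05 FPKM (0.82), and above it in *idd4*-labelled seedlings, with 2.91 and 8.69 FPKM. *WRKY54* behaved likewise at lower levels, with 0.968 and 2.28 FPKM in WT and 0.510 and 2.06 FPKM in *idd4*-labelled seedlings, where its log2 difference of 1.02 was the smallest of those counted. *WRKY38*, which with *WRKY62* restrains basal defence, remained below 1 FPKM in these 4 groups, at 0.133 and 0.292 FPKM untreated and 0.760 and 0.121 FPKM treated.

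Promoters of the members were read from the reference genome for the presence of W-boxes, since the tables themselves carry no sequence. The search covered the 250 bases before each annotated gene start for TTGACC and TTGACT on both strands, in which case the reverse reads GGTCAA or AGTCAA. Of the 60 members 22 (36.7%) held at least 1 match, against 28.4% of the 27443 protein-coding nuclear genes, and 10 (16.7%) held 2 or more, against 6.18%. Of the 22 members that were higher after flg22 in both genotypes 12 (54.5%) held a match, against 10 of the other 38 members (26.3%) and 46.6% of the 1857 other genes that were higher in both. The share among the responsive members was therefore nearer to that of other flg22-responsive genes than to that of all genes. For the ID1 motif AGACAA, the described binding site of IDD4, 12 of the 60 members held a match, as did 19.6% of all genes, and no ID1 match shared bases with a W-box in the members. A match describes the letters of the window and is not evidence of binding.

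The following 30-base windows are shown for the 6 members with a match that were more than 10-fold higher after flg22 in WT, for *WRKY29*, whose 2 matches fit in 1 window, and for the related pair *WRKY41* and *WRKY53*. They are from TAIR10.1, written 5′ to 3′ on the strand of the gene, with each W-box match in capitals.
WRKY30 (chr5:8154758-8154787, minus strand): cgttcttcAGTCAAaaAGTCAAactatctc
WRKY29 (chr4:12291587-12291616, plus strand): acgaaTTGACTttttcaaaAGTCAAcacaa
WRKY33 (chr2:16108127-16108156, plus strand): tcaacgtttgagAGTCAAggccacaaggtc
WRKY28 (chr4:10060993-10061022, plus strand): ctttatgtacatTTGACTgataaacattaa
WRKY11 (chr4:15292023-15292052, minus strand): aagctttataaaAGTCAAatgtatccatta
WRKY15 (chr2:9924743-9924772, plus strand): tttgtacaaactTTGACTtttcgaatctaa
WRKY26 (chr5:2204136-2204165, plus strand): cttacacaaaaaAGTCAAacattttggtgt
WRKY53 (chr4:12394184-12394213, minus strand): attggtcagcctTTGACCttatactctttc
WRKY41 (chr4:6758892-6758921, plus strand): tttggtcagcatTTGACCtatagtaaacac

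*WRKY30*, the member with the largest flg22 difference, was the one member with 3 matches, 2 of them in the window shown. Of all genes 1.06% held 3 or more, and of the 1857 other genes higher after flg22 in both genotypes 4.52% did, against 4.55% of the 22 responsive members. *WRKY29* held its 2 matches in opposite orientation. The windows of *WRKY53* and *WRKY41* were equal at 18 of 30 positions. These include the 6 bases of TTGACC, around which both windows were placed, so the count does not measure likeness of the promoters. Not every strongly responsive member held a match: none was found in this stretch upstream of *WRKY22*, *WRKY6*, *WRKY18*, *WRKY40* or *WRKY48*, which says only that these letters are not there.

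**Figure D3:**
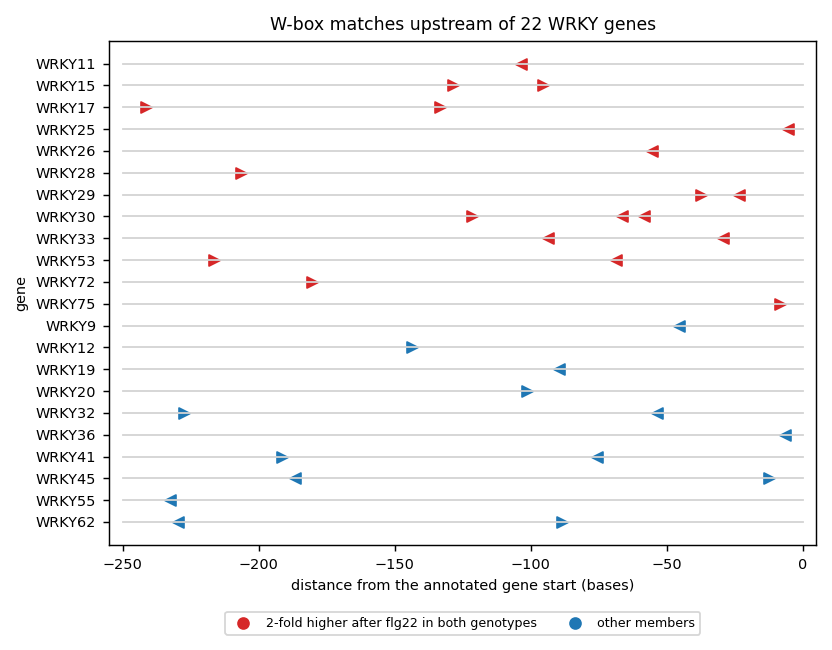
Positions of the W-box matches in the 250 bases before the annotated start of the 22 WRKY genes that hold one, 1 line per gene, with arrowheads showing the orientation of the match. The upper 12 genes, in red, were at least 2-fold higher after flg22 in both genotypes, and *WRKY30* alone carries 3 matches.

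Genes for partners and upstream kinases of the family were counted in the same way, against 10.9% of measured genes higher in WT and 13.1% in *idd4*-labelled seedlings. Of 27 VQ proteins, short regulators that bind WRKY domains, 14 were at least 2-fold higher and 0 lower after flg22 in each genotype, with a median log2 difference of 1.51 over the 24 measured in WT. The other 13 were within 2-fold. *AT2G22880* had 4.74 FPKM in untreated WT and 787 FPKM after flg22, above any WRKY member. *MKS1*, which links the kinase MPK4 to *WRKY33*, had 8.63 and 115 FPKM. *SIB1*, a partner of WRKY33, had 3.62 and 29.4 FPKM. Of 11 genes of the receptor and kinase route, 8 were higher in WT and 10 in *idd4*-labelled seedlings, where *MKK2* and *MPK4* were added, and 0 were lower. *FLS2*, the flagellin receptor, had 1.42 FPKM in untreated WT and 48.7 FPKM after flg22, and *MPK3* had 21.7 and 184 FPKM.

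Of 17 genes described as WRKY targets 7 were higher and 1 lower after flg22 in WT, against 10.9% and 8.48% of measured genes, and 8 and 1 in *idd4*-labelled seedlings, against 13.1% and 8.33%. The danger peptide gene *PROPEP3* had 5.40 FPKM in untreated WT and 265 FPKM after flg22. The salicylic acid regulators *CBP60G* and *NPR1* had 2.34 and 37.0 FPKM and 9.94 and 53.5 FPKM. *CYP71A13*, a camalexin enzyme described as a *WRKY33* target, was lower, at 19.7 and 0.936 FPKM, and the final camalexin enzyme gene *PAD3* stood at 3.19 and 3.68 FPKM. *ICS1* had 1.74 and 1.67 FPKM.

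Between the untreated genotypes the family differed little. In *idd4*-labelled seedlings 1 of the 60 members was at least 2-fold higher than in WT and 0 were lower, where 0.523% and 0.463% of measured genes were, and the median log2 difference over the 60 members was 0.03. The counts at 1.5-fold were also 1 and 0, against 1.59% and 2.02% of measured genes. The 1 member was *WRKY30*, at 1.71 and 4.45 FPKM (1.01), just inside the threshold and at a level below 5 FPKM. The next was *WRKY40*, at 1.43 and 2.39 FPKM (0.48), and the lowest *WRKY26*, at 4.61 and 2.92 FPKM (-0.52). Among members of at least 5 FPKM the largest positive log2 differences were those of *WRKY53* and *WRKY22* (0.44 each), *WRKY70* (0.35), *WRKY36* (0.29, with 6.81 and 8.52 FPKM) and *WRKY29* (0.25). The largest negative ones were *WRKY45* (-0.32, with 12.1 and 9.52 FPKM), *WRKY57* (-0.25), *WRKY4* (-0.16), *WRKY47* (-0.10) and *WRKY1* (-0.04). Of these members, the study names *WRKY22* as having enhanced expression in untreated *idd4* plants. Rescaling to the summed nuclear genes moved the median over genes of 5 FPKM or more up by 0.58 and that of the measured members from 0.04 to 0.53. Under it the positive differences named here stayed positive, while the negative ones of *WRKY45*, *WRKY57*, *WRKY4*, *WRKY47* and *WRKY1* became positive (0.21 to 0.50), and centring on the median ratio turned that of *WRKY1* alone (0.02). The seed storage gene *CRA1* moved with this contrast, at 1.56 FPKM in untreated WT and 0.0504 FPKM in untreated *idd4*-labelled seedlings, and its part in the result was not tested.

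After flg22, 0 of the 60 members differed 2-fold between the genotypes, against 0.630% of measured genes higher and 0.491% lower. At 1.5-fold 4 measured members were higher in *idd4*-labelled seedlings and 0 lower, against 3.15% and 1.72% of the measured genes. *WRKY41* had the largest log2 difference, 0.94, with 4.05 FPKM in WT and 8.69 FPKM in *idd4*-labelled seedlings, where the FPKM alone was 2.15-fold higher. *WRKY28* followed with 79.5 and 149 FPKM (0.90), *WRKY49* with 1.03 and 2.30 FPKM (0.70) and *WRKY33* with 221 and 337 FPKM (0.60). From its own test on replicates, the study names *WRKY33* and *WRKY49* among genes elevated in *idd4* after flg22. *WRKY22* and *WRKY30*, at 0.54 and 0.53, were just short of 1.5-fold. *WRKY38*, under the minimum of 1 FPKM, had 0.760 and 0.121 FPKM (-0.65). *WRKY50* was lowest among members measured (-0.37). Among members of at least 5 FPKM the most negative were *WRKY70* (-0.22), *WRKY69* (-0.17, with 10.1 and 8.87 FPKM), *WRKY20* (-0.14), *WRKY3* (-0.07) and *WRKY1* (-0.04). Of the 52 members measured 36 (69.2%) lay above 0 and 16 below, where 60.4% of all measured genes lay above 0. Their median was 0.22 against 0.06 over all measured genes. The shoot markers and the root markers *CASP1* and *SHR* were lower in *idd4*-labelled seedlings in this contrast, while *EXPA7* and *COBL9* were nearly level. *LHCB3*, *CA1* and *GAPA* had 4148, 851 and 972 FPKM in treated WT and 2898, 618 and 868 FPKM in treated *idd4*-labelled seedlings. *EXPA7*, *COBL9*, *CASP1* and *SHR* had 8.36, 1.98, 27.8 and 11.2 FPKM in WT and 7.78, 2.11, 19.5 and 9.54 FPKM in *idd4*-labelled seedlings. The part of tissue composition was not tested. This comparison uses the same treated groups as the flg22 comparisons above.

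The flg22 difference itself was compared between genotypes as the log2 difference in *idd4*-labelled seedlings minus that in WT. Of the 52 members measured 0 differed 2-fold in either direction, where 1.30% of measured genes were more positive in *idd4*-labelled seedlings and 0.796% more negative. The members' median was 0.13 and that of all genes 0.11. *WRKY28* (0.90), *WRKY26* (0.73) and *WRKY46* (0.70) were the most positive, and *WRKY70* (-0.57), *WRKY23* (-0.50) and *WRKY30* (-0.47) the most negative. *WRKY38*, below 1 FPKM throughout, had -0.84. For *WRKY30* both the untreated and the treated level were higher in *idd4*-labelled seedlings than in WT.

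**Figure D4:**
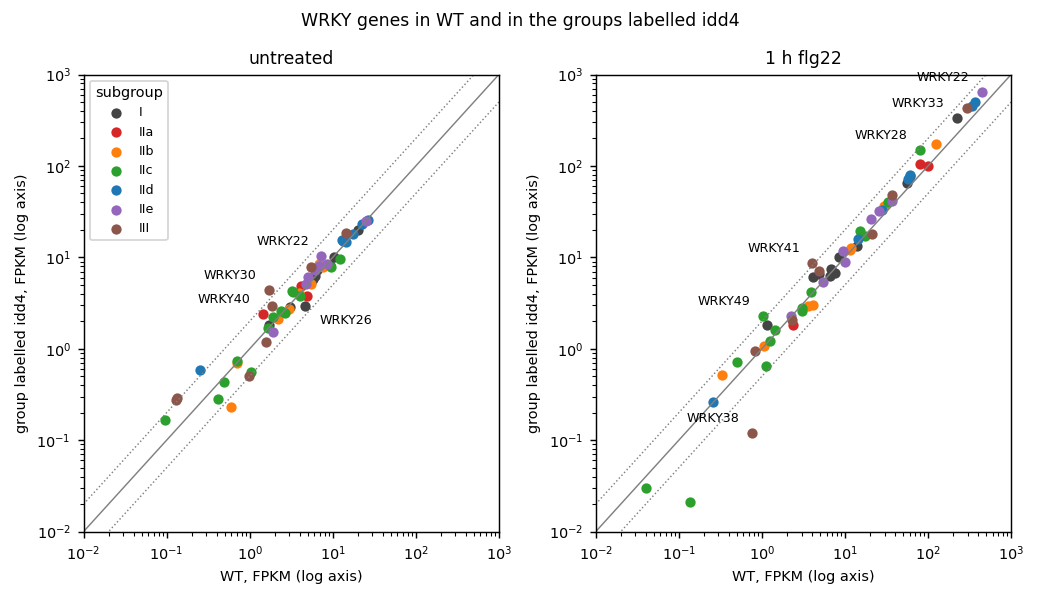
FPKM of the WRKY genes in WT (x axis, log) and in *idd4*-labelled seedlings (y axis, log), untreated on the left and after 1 h of flg22 on the right, 1 point per gene coloured by subgroup, with the grey line at equality and dotted lines at 2-fold of FPKM. *WRKY62*, listed at 0, is not drawn. On the right the highest genes lie above the line, *WRKY22* at 442 and 644 FPKM, and *WRKY41*, *WRKY49* and *WRKY38* are among those past 2-fold of FPKM.

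In the lines that express IDD4 from *UBI10*, no member reached a 2-fold log2 difference from WT in any line. In *IDD4ox* 0.857% of measured genes were higher and 0.736% lower, in *IDD4-AA* 0.308% and 0.615%, and in *IDD4-DD* 0.981% and 0.601%, so that a count of 0 among 60 members is near the background. These 3 comparisons share the same WT group. The medians over the 60 members were -0.01, -0.02 and -0.06. At 1.5-fold 2 members were higher and 3 lower in *IDD4ox* (3.94% and 2.49% of measured genes), 0 and 1 in *IDD4-AA* (1.85% and 2.12%), and 2 and 4 in *IDD4-DD* (3.15% and 2.47%).

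*WRKY60* was the nearest member to 2-fold in *IDD4ox*, with 2.61 FPKM in WT, 6.15 FPKM in *IDD4ox*, 2.66 FPKM in *IDD4-AA* and 4.69 FPKM in *IDD4-DD*. Its FPKM was 2.35-fold that of WT in *IDD4ox* (log2 difference 0.98) and 1.80-fold in *IDD4-DD*, and level with WT in *IDD4-AA*. Its partner *WRKY40* was lowest in *IDD4ox*, with 18.7, 10.7, 16.5 and 16.4 FPKM in WT, *IDD4ox*, *IDD4-AA* and *IDD4-DD*. *WRKY18*, in the same order, had 5.26, 5.45, 5.62 and 7.51 FPKM and was highest in *IDD4-DD*. The 3 members of subgroup IIa thus had 3 different orders over the lines.

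*WRKY75* had 3.32 FPKM in WT and was higher in each line, with 6.17 FPKM in *IDD4ox*, 4.56 FPKM in *IDD4-AA* and 5.90 FPKM in *IDD4-DD*. *WRKY39* had 20.6, 30.6, 25.2 and 26.5 FPKM and *WRKY21* had 6.68, 9.69, 8.47 and 8.29 FPKM in WT, *IDD4ox*, *IDD4-AA* and *IDD4-DD*. These 2 calmodulin-binding members of subgroup IId, which stayed within 2-fold after flg22, were above WT in all 3 lines with log2 differences of 0.27 to 0.55. *WRKY26* followed in *IDD4ox* (0.32, 6.92 and 8.91 FPKM). In *IDD4-AA* the next were *WRKY1* (0.24, 13.5 and 16 FPKM), *WRKY69* (0.15) and *WRKY2* (0.12), and *WRKY56*, at 2.80 and 4.30 FPKM (0.48), was the nearest to 2-fold. In *IDD4-DD* *WRKY16* (0.13), a member fused to an immune receptor, came after *WRKY75*, *WRKY18*, *WRKY39* and *WRKY21*.

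On the lower side, *WRKY54* and *WRKY70*, which act together in senescence and salicylic acid responses, were below WT in *IDD4ox* and *IDD4-AA*. *WRKY54* had 11.5, 6.74, 7.08 and 7.91 FPKM in WT, *IDD4ox*, *IDD4-AA* and *IDD4-DD*, and in *IDD4-AA* it was the nearest to 2-fold lower (-0.63). *WRKY70* had 79.5, 55.9, 64.9 and 79.4 FPKM, with *IDD4-DD* level with WT. *WRKY53* had 8.57, 6.48, 6.05 and 6.15 FPKM and was below WT in each line. *WRKY46* had 3.35, 3.14, 3.44 and 4.03 FPKM. *WRKY38* had 1.35 FPKM in WT, 0.263 FPKM in *IDD4ox*, 0.624 FPKM in *IDD4-AA* and 0.397 FPKM in *IDD4-DD*, and its log2 difference of -0.90 in *IDD4ox* was the most negative of that comparison, at a level near 1 FPKM.

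*WRKY29* was lowest in *IDD4-DD*, with 7.17 FPKM in WT, 4.55 FPKM in *IDD4ox*, 5.64 FPKM in *IDD4-AA* and 3.38 FPKM in *IDD4-DD* (log2 difference -0.90 from WT). Its relative *WRKY22* had 15.7, 11.5, 15.5 and 15.6 FPKM and was lowest in *IDD4ox*. *WRKY33* was lowest there too, with 50.4, 37.8, 49.4 and 47.6 FPKM. *WRKY28* had 0.717, 0.987, 0.406 and 1.48 FPKM and *WRKY49* had 1.2, 1.75, 0.990 and 1.78 FPKM, both with *IDD4-AA* lowest and *IDD4-DD* highest, at low levels. *WRKY57* had 8.91, 9.64, 9.51 and 7.29 FPKM.

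All 8 members of subgroup IIb were below WT in *IDD4-DD*, with log2 differences of -0.69 to -0.26 and a median of -0.42, against 0.03 over all measured genes. In that comparison 34 of the 52 measured members of the family lay below 0, while 54.7% of all measured genes lay above 0. The median of subgroup IIb was the lowest of the 7 subgroups there. *WRKY9* had 5.05, 3.22, 3.39 and 2.75 FPKM in WT, *IDD4ox*, *IDD4-AA* and *IDD4-DD*, and *WRKY36* had 11.5, 8.54, 10.2 and 7.23 FPKM. The subgroup's medians were -0.18 in *IDD4ox* and -0.22 in *IDD4-AA*. Root markers moved with these groups. The root hair genes *EXPA7* and *COBL9* and the endodermal *CASP1* had 17.9, 9.48 and 66.2 FPKM in WT and 11.7, 5.14 and 37.4 FPKM in *IDD4-DD*. They had 11.9, 5.63 and 48.2 FPKM in *IDD4ox* and 12.5, 6.65 and 44.9 FPKM in *IDD4-AA*, each below WT. The fourth root marker, *SHR*, had 11 FPKM in WT, 15.3 FPKM in *IDD4ox*, 13 FPKM in *IDD4-AA* and 11.2 FPKM in *IDD4-DD*. The part of root tissue in the differences of these members was not tested.

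**Figure D5:**
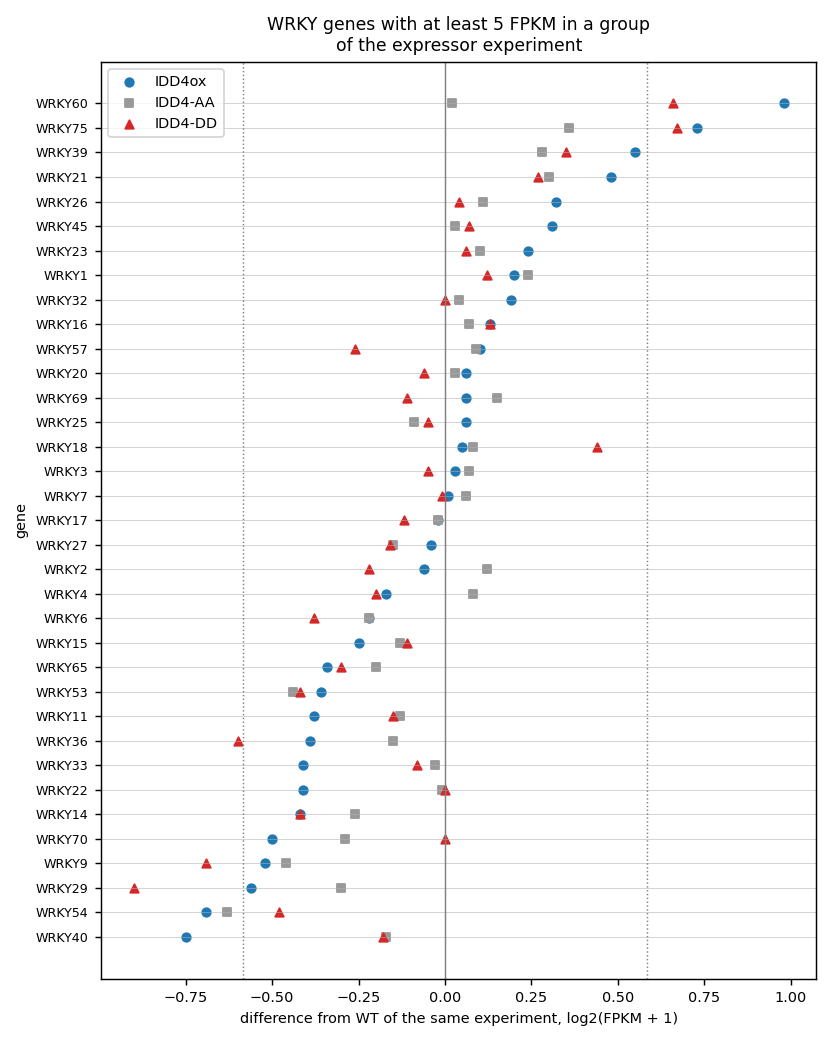
Difference of log2(FPKM + 1) from WT of the same experiment in *IDD4ox* (circles), *IDD4-AA* (squares) and *IDD4-DD* (triangles) for the WRKY genes with at least 5 FPKM in a group, ordered by *IDD4ox*, with dotted lines at 1.5-fold. *WRKY60* (0.98 in *IDD4ox*) lies farthest right and *WRKY29* (-0.90 in *IDD4-DD*) farthest left.

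*IDD4-DD* and *IDD4-AA* differ at the same 2 residues. *IDD4* itself was at 198 and 71.6 FPKM in them, so transcript level and substitution cannot be told apart in these values. The study describes both lines as chosen for comparable transcript levels, with equal amounts of protein on immunoblots. Protein was not measured in the data used here. Between them 0 members differed 2-fold, with 0.971% of measured genes higher in *IDD4-DD* and 0.285% lower. *WRKY28* came nearest on the higher side (0.82) and *WRKY29* on the lower (-0.60), and *WRKY60* was the other member past 1.5-fold (0.63), where 2.70% of measured genes were higher and 1.43% lower. Among members of at least 5 FPKM, *WRKY18* (0.36), *WRKY75* (0.31), *WRKY70* (0.29), *WRKY54* (0.14) and *WRKY39* (0.07) were the most positive. *WRKY29*, *WRKY36* (-0.45), *WRKY57* (-0.34), *WRKY2* (-0.33, with 5.38 and 4.06 FPKM) and *WRKY4* (-0.28, with 10.5 and 8.45 FPKM) were the most negative.

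Some members differed more between the WT groups of both experiments than between any line and its WT. The tables were normalized separately and the experiments are confounded with the groups, so these values are given side by side. In the WT of the expressor experiment 12 members were at least 2-fold higher than in untreated WT of the flg22 experiment and 1 was lower, where 9.61% and 7.06% of measured genes were. *WRKY40* had 1.43 FPKM in the flg22 experiment and 18.7 FPKM in the expressor experiment. *WRKY54* had 0.968 and 11.5 FPKM, *WRKY33* 7.16 and 50.4 FPKM, *WRKY70* 14.5 and 79.5 FPKM and *WRKY11* 13.4 and 73.1 FPKM. *WRKY30* was the lower one, with 1.71 and 0.268 FPKM. *WRKY3*, with 6.52 and 20.1 FPKM, was among the 12 although flg22 left it level. The root markers *EXPA7*, *COBL9* and *CASP1* were also higher in the expressor experiment, with 4.17, 2.89 and 18.9 FPKM against 17.9, 9.48 and 66.2 FPKM, and *SHR* had 13.7 and 11 FPKM. Their part was not tested.

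Counting of reads sets a further limit for some members. The strand setting of the counting is not given in the sources used here, and 11 members overlap a gene of the tables on the opposite strand (*WRKY1*, *WRKY2*, *WRKY4*, *WRKY9*, *WRKY19*, *WRKY29*, *WRKY33*, *WRKY40*, *WRKY41*, *WRKY53* and *WRKY69*). The overlap with such a gene is 26 bases for *WRKY33* and 517 bases for *WRKY41*. Long non-coding RNA genes that are not in the tables also overlap members on the opposite strand, over 272 bases of *WRKY33*, 216 of *WRKY61* and 345 of *WRKY69*. Without strand, reads of a member and of its neighbour in that stretch cannot be told apart.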

How the data were processed

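RNA-seq of whole seedlings was deposited by the authors as 2 tables of FPKM, 1 value per gene and group. Per the study's methods, Trimmomatic, TopHat on TAIR10 and then Cufflinks with cuffdiff took the paired-end reads to these values. Replicates enter these values before deposit, so neither a spread nor a paired or left-out analysis was possible, and depth is unknown.

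Gene identifiers stood out of alphabetical order beside the values in the tables (21642 of 27371), and sorting them restored agreement: 1997 of 1997 and 1900 of 1900 genes equalled the untreated values in the study's own supplementary lists within a relative 0.001, against 499 and 534 as deposited. The lists hold 6 members, all equal after sorting, and every one of the 60 members has an equal gene within 55 rows on both sides. This check covered the flg22 experiment. Identifiers of the expressor experiment were sorted in the same way, but its values were not matched to a list. The column named IDD4 was read as the group labelled *idd4*, called *idd4*-labelled seedlings in the text.

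Python 3.11.15 with pandas 2.3.3 and NumPy 2.4.6 computed differences of log2(FPKM + 1) (pseudocount 1), 2-fold counts and medians. Genes below 1 FPKM in both groups were left out of the background. The arithmetic alone was checked, on copies of deposited values in which chosen genes were changed by a set factor and no noise was added. Named members were the 5 largest differences in each direction among members of at least 5 FPKM, those named by the study, subgroup IIa, members at 0 and those nearest 2-fold. Members and lists were chosen with earlier results of these data known. Alternatives were a pseudocount of 0.1, 1.5-fold, no filter, 5 FPKM, centring on the median ratio and rescaling to nuclear genes. Promoters came from TAIR10.1. Protein sequences were not used here.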

Additional observations from a re-analysis of the deposited data

How the results depend on the processing

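No paired analysis was possible because the tables hold 1 pooled value per group and carry no replicate numbers. For the same reason leaving out a replicate could not be run. Of 136 counts and medians under alternatives 29 moved, and of 240 values of single genes 11 moved. No value past 2-fold changed sign. Of the smaller ones 7 changed sign, all between genotypes of the flg22 experiment and at most 0.32 in size as reported, and 4 medians of the expressor lines did, all 0.01 in size (-0.04 to 0.01 afterwards). With a pseudocount of 0.1, members lower after flg22 in WT numbered 4, and the median over measured members was 0.71 in WT and 1.03 in *idd4*-labelled seedlings. The same pseudocount gave 2 members higher in *idd4*-labelled seedlings after flg22, 1 higher and 1 lower in *IDD4ox*, 1 lower in *IDD4-AA*, 2 lower in *IDD4-DD* and 1 higher in *IDD4-DD* than in *IDD4-AA*. At 1.5-fold, 4 members were lower after flg22 in each genotype, 4 were higher in *idd4*-labelled seedlings after flg22, 2 higher and 3 lower in *IDD4ox*, 1 lower in *IDD4-AA*, 2 higher and 4 lower in *IDD4-DD*, and 2 higher and 1 lower in *IDD4-DD* than in *IDD4-AA*. With at least 5 FPKM, 1 member was lower after flg22 in each genotype, the medians were 1.81 in WT and 1.89 in *idd4*-labelled seedlings, and 0 members were higher in untreated *idd4*-labelled seedlings, since *WRKY30* was below 5 FPKM there. With no filter the median after flg22 in *idd4*-labelled seedlings was 0.46. Rescaling to nuclear genes left 1 member lower after flg22 in WT and 1 higher in *IDD4ox*, and gave medians of 0.43 after flg22 and 0.53 untreated in *idd4*-labelled seedlings. That rescaling moved the median over genes of 5 FPKM or more by 0.58 in the untreated comparison, by -0.45 after flg22 in *idd4*-labelled seedlings and by 0.08 between the treated genotypes. The nuclear sum rests on few genes, such as *AT5G66607*, at 49775 FPKM in untreated WT and listed at 0 in untreated *idd4*-labelled seedlings. Centring on the median ratio moved it by 0.11 in WT after flg22. For members near 1 FPKM, such as *WRKY38* and *WRKY28* in the expressor experiment, the number of fragments behind a value is unknown.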
